A study of Mus musculus with 12 samples.

Results

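Serpina1a, Serpina1b, Serpina1c, Serpina1d, Serpina1e, Serpina3k, Serpina3m, Serpina3n, Serpina3g and Serpina6 are serine protease inhibitor (serpin) genes that lie close together on mouse chromosome 12, and their RNA was measured in the liver after inhibition of the microRNA miR-29. These 10 genes, called the members here, were found by their symbols among the 21705 genes of the deposited table. Each of the 10 had a mean value above the minimum used for testing. Their Entrez numbers are 20700 to 20704 for Serpina1a to Serpina1e, 20714 for Serpina3k, 20717 for Serpina3m, 20716 for Serpina3n, 20715 for Serpina3g and 12401 for Serpina6.

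The comparison asks which liver RNAs differ after miR-29 is blocked, in a study of miR-29 and blood lipids in mice. Polyadenylated RNA was sequenced as single reads of 100 bases from 12 livers, each from a separate female C57BL/6J mouse aged 10 to 12 weeks. The saline group, replicates 43, 45, 47, 49, 51 and 53, received saline through the tail vein. The LNA29 group, replicates 44, 46, 48, 50, 52 and 54, received locked nucleic acids (LNAs, short stable antisense strands that block a microRNA) against miR-29a and against miR-29b/c, at 20 mg/kg each. Both groups of 6 were killed on day 7 after dosing, following a fast of 18 h. The controls received no unrelated LNA in this comparison, so an effect of blocking miR-29 and an effect of the LNA chemistry cannot be told apart.

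Serpins trap proteases: a protease cleaves an exposed stretch near the end of the serpin, the reactive centre loop, and is then locked to it, so that the loop decides which protease is bound. Hepatocytes secrete antitrypsin, which protects the lung from neutrophil elastase, and where humans have a single gene for it C57BL/6 mice carry the tandem copies Serpina1a to Serpina1e. The mouse Serpina3 genes are multiplied relatives of human antichymotrypsin, some of them induced in acute inflammation, whereas Serpina6 encodes transcortin, the corticosteroid carrier of plasma and not a protease inhibitor.

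The microRNAs that the LNAs bind are shown first, since the same letters were looked for in the members. The mature sequences are from RefSeq (GRCm38.p6), 5′ to 3′, with the seed, bases 2 to 8, in capitals.
mmu-miR-29a-3p (chr6:31062673-31062694, minus strand): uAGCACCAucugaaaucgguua
mmu-miR-29b-3p (chr1:195037091-195037113, plus strand and chr6:31063025-31063047, minus strand): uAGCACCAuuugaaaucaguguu
mmu-miR-29c-3p (chr1:195037600-195037621, plus strand): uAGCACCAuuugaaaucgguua
All 3 share the seed AGCACCA. Its complement in a target, TGGTGCT, was searched in the annotated transcript with the longest complete coding sequence of each member (GENCODE M21, GRCm38, which need not be the annotation that the authors used). It was absent from the 3′ UTRs of all 10 members, which are between 86 and 723 bases long. The coding sequences of Serpina3k, Serpina3m, Serpina3n and Serpina3g held 1 match each, and those of the other 6 members held 0. Absence says only that these letters are not in those transcripts.

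Promoters from RefSeq (GRCm38.p6), from 250 bases before to 50 bases after the annotated start, were available for 7 of the 10 members, the exceptions being Serpina3k, Serpina3m and Serpina6. The letters GTTAAT, the core of the site of the hepatocyte factor HNF1, were found on either strand in 5 of the 7, which were the Serpina1 copies, and in 7.10% of 32851 promoters of the same length. The letters TTCNNNGAA, the core of a STAT site, were found in 1 of the 7, Serpina3g, and in 8.30% of all promoters. The Serpina1 windows around GTTAAT are shown because Serpina1e is nearly like the other copies there, while its values, given further on, were unlike theirs. Each window is 76 bases long, lies on the minus strand and is written 5′ to 3′ with the match in capitals.
Serpina1a (chr12:103863625-103863700, minus strand): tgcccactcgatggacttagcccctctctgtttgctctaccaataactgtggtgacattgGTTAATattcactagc
Serpina1b (chr12:103738200-103738275, minus strand): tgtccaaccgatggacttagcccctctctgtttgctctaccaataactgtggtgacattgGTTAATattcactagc
Serpina1c (chr12:103904962-103905037, minus strand): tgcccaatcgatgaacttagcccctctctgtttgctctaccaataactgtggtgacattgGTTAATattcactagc
Serpina1d (chr12:103773634-103773709, minus strand): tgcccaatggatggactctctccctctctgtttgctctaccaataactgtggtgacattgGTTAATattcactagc
Serpina1e (chr12:103956960-103957035, minus strand): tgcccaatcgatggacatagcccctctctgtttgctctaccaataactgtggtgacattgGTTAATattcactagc
Across the 5 windows 10 positions differed. Serpina1a and Serpina1c each differed from Serpina1e at 2 bases, Serpina1b at 3 and Serpina1d at 6. The match began between 16 and 27 bases before the annotated start in Serpina1a to Serpina1d and 78 bases before it in Serpina1e. A match is a description of letters, and binding was not measured here.

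The coding sequences decide how well reads can be given to 1 copy. Coding sequences of the Serpina1 copies were between 96.3% and 98.5% identical in pairs, and Serpina1e was between 96.3% and 96.5% identical to the other copies. Among the Serpina3 members identity was between 80.0% and 91.3%, and between Serpina1 and Serpina3 members it was between 55.7% and 58.7%. Serpina6 was between 51.6% and 54.7% identical to the other members. In the alignment of the Serpina1 copies 155 of 1311 positions differed or were gapped, with a median of 4 in a window of 60 bases. The window with the most, 18, lies in the part that encodes the reactive centre loop, and it is printed because the copies differ most there. It holds only some of the letters that tell Serpina1e from the other copies. Over the whole coding sequence Serpina1e differs from each of them at between 43 and 46 bases. Letters that differ among the copies are in capitals (GENCODE M21, GRCm38, chromosome 12, coding strand, bases counted from 1 at the start codon).
Serpina1a (coding bases 1170 to 1229): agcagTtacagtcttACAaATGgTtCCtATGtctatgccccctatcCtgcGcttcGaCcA
Serpina1b (coding bases 1101 to 1160): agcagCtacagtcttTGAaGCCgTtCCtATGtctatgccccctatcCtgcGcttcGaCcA
Serpina1c (coding bases 1101 to 1160): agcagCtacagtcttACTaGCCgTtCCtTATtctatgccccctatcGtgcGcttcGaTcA
Serpina1d (coding bases 1101 to 1160): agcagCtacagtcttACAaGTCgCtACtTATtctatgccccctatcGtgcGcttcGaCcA
Serpina1e (coding bases 1101 to 1160): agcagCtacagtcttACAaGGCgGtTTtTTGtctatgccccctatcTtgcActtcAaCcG
In this window Serpina1e differed from the other copies at between 10 and 12 bases.

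Shared stretches leave some reads without a unique source. A window of 100 coding bases, the length of 1 read, was identical in a transcript of another Serpina gene for 61.7% of the windows of Serpina1c and 58.0% of those of Serpina1a. For Serpina1d the share was 29.8%, for Serpina1b 27.9% and for Serpina1e 19.1%. It was 8.20% for Serpina3k and for Serpina3m, 3.40% for Serpina3g, 0.345% for Serpina3n and 0 for Serpina6. RSEM, the authors' program, divides such reads by estimation, so the values of single Serpina1 copies are uncertain, those of Serpina1a and Serpina1c most so by this measure, and the sum over copies does not depend on the division among them.

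**Figure D1:**
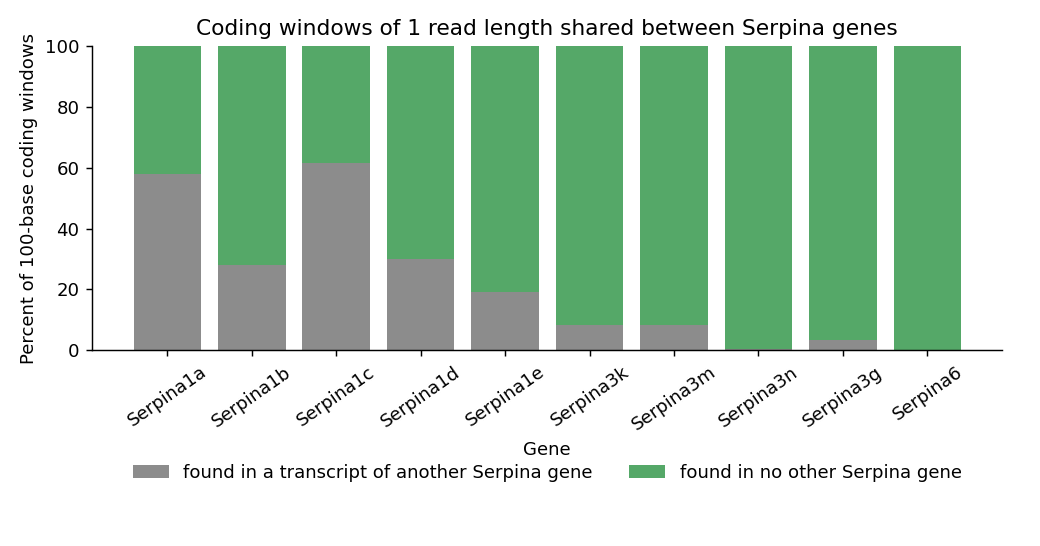
Percent of the 100-base windows in the coding sequence of each member (vertical axis) that also occur in a transcript of another Serpina gene (grey) or in none (green). Serpina1c, at 61.7%, and Serpina1a, at 58.0%, have the most shared windows, and Serpina6 has 0.

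The depth was between 7696081 and 19062437 estimated reads per liver. Its median was 12011982 in saline livers and lower, 9123458, in LNA29 livers. The authors scaled each liver by its upper quartile over genes that had reads, which is 1000 in 11 livers and 998 in saline replicate 49, and a gene without reads was listed at 1. One estimated read was therefore worth between 9.80 and 24.4 of this unit, called the value here. The median worth was 12.9 in saline and 18.4 in LNA29 livers. Scarce genes are thus measured more coarsely in LNA29 livers, and the part of depth in their differences was not tested. The values are not divided by gene length, so levels of the members are compared with each other per kb of transcript.

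Saline replicate 49 stood apart from the other livers. Albumin, a hepatocyte product, took 35.7% of its summed values, against 43.6% to 46.9% in the other 5 saline livers and 44.5% to 46.8% in the LNA29 livers. Its Serpina1 values were also the lowest of the 12 livers, and results that rest on it are given with and without it. Among LNA29 livers, replicate 48 was at an end of the range for several members and is named where it matters.

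Across the liver, 20 of 12486 tested genes (0.160%) passed a limma adjusted p of 0.05, 9 of them higher and 11 lower in LNA29 livers. With the livers shifted to a common median the split was 6 higher and 4 lower, and after quantile normalization, an alternative added after the data were seen, it was 14 and 5. With each liver left out in turn between 1 and 29 genes passed: 9 without LNA29 replicate 46, 10 without 52, 1 without 50 or 54 and 29 without 48, and 1 without saline replicate 43, 3 without 51, 7 without 53 and 11 without 47. The unadjusted p was under 0.05 for 988 genes (7.91%), of which 243 were higher and 745 lower in LNA29 livers, and the groups did not overlap for 123 genes (0.985%). Of the 10 members, 0 passed the adjusted threshold in limma, 2 had an unadjusted p under 0.05 (Serpina1e and Serpina6), and 0 had groups that did not overlap. The median log2 difference (log2 fold change of LNA29 against saline) of the 10 members was -0.05, against -0.09 for all tested genes. Serpina1e, the member with the smallest p, ranked 74 of 12486 by limma p.

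Targets known for miR-29 served to check the group labels. Eln, which encodes elastin, had a lowest value of 203, a median of 417 and a highest of 737 in saline livers, and 756, 1719 and 2377 in LNA29 livers. The groups did not overlap, and Eln rose with a log2 difference of 1.93 (limma standard error, SE, 0.30; adjusted p = 0.0224). Col3a1, of type III collagen, rose by 1.48 (SE 0.28, limma adjusted p = 0.0438). Both calls depend on the setting: the adjusted p of Eln was above 0.05 without saline replicate 43 (0.0580) or 51 (0.0580) or LNA29 replicate 50 (0.0784) or 54 (0.0610), and that of Col3a1 was above it in 10 of the 12 fits that leave out a liver. Over 20 alternatives it was between 0.00159 and 0.0938 for Eln and between 0.0127 and 0.129 for Col3a1, both highest with no intensity trend, a setting added after the data were seen. Col1a1, of type I collagen, had a log2 difference of 0.70, within the spread between livers (p = 0.123 by exact permutation).

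Serpina1e was the member with the largest difference between the groups. It encodes a copy of antitrypsin whose reactive centre loop differs from those of the other copies. In saline livers its lowest value was 40867 (replicate 49), its median 204062 and its highest 648539 (replicate 45). In LNA29 livers the lowest was 312592 (replicate 46), the median 1137293 and the highest 2081217 (replicate 48). All 6 LNA29 livers were above the saline median and 4 of 6 were above the highest saline liver, so that the groups overlapped in 2 LNA29 livers.

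The mean of Serpina1e was 265764 ± 221687 in saline livers and 1148861 ± 677404 in LNA29 livers (SD, n = 6 each), a ratio of 4.32. The log2 difference was 2.33 (SE 0.59), and the limma adjusted p of 0.166 missed the threshold. Over 20 alternatives this adjusted p was between 0.0346 and 0.410, and it passed the threshold in 1 of them, with values beyond 1.5 SD of the group mean discarded, a setting in which 217 of all tested genes passed. The two-sided exact permutation test over the 924 divisions of the livers gave p = 0.0108 for this gene alone, unadjusted for the number of genes. With each liver left out in turn the log2 difference was between 1.89 and 2.69 and the exact permutation p between 0.00649 and 0.0216. Without saline replicate 49 it was 1.89 (limma adjusted p = 0.212). Without both saline replicate 49 and LNA29 replicate 48 it was 1.67 (p = 0.0397 by exact permutation), an alternative chosen after the data were seen and given below for the other members too.

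Serpina1a to Serpina1d, the copies that make up most of the antitrypsin RNA, differed far less. Serpina1a had a lowest value of 989763, a median of 2297100 and a highest of 2683660 in saline livers, and 1864187, 2074265 and 2988440 in LNA29 livers. Serpina1b had 1529486, 3530374 and 4010427 in saline livers, and 2521759, 2857051 and 3613401 in LNA29 livers. For each of these 4 copies saline replicate 49 was the lowest of the 12 livers and the groups overlapped.

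Serpina1c had a lowest value of 1068576, a median of 2393861 and a highest of 2582825 in saline livers, and 1975614, 2062242 and 2597832 in LNA29 livers. Serpina1d had 805138, 1708240 and 1945903 in saline livers, and 1206140, 1326378 and 1593141 in LNA29 livers. All 6 LNA29 livers were below the saline median in Serpina1d, 5 of 6 in Serpina1a and in Serpina1b, and 4 of 6 in Serpina1c.

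The log2 differences were 0.09 for Serpina1a, -0.09 for Serpina1b, 0.07 for Serpina1c and -0.17 for Serpina1d, with limma SE between 0.42 and 0.57 and exact permutation p between 0.435 and 0.881. With no intensity trend, a setting added after the data were seen, their SE was between 0.21 and 0.24, and that of Serpina1e was 0.66 (limma adjusted p = 0.369). Without saline replicate 49 the log2 differences were -0.12 for Serpina1a, -0.30 for Serpina1b, -0.12 for Serpina1c and -0.36 for Serpina1d. The exact permutation p was then 0.0325 for Serpina1b and 0.00866 for Serpina1d, while their limma adjusted p, 0.922 and 0.864, stayed far from the threshold. Over all 20 alternatives the adjusted p was between 0.691 and 0.9996 for Serpina1b and between 0.539 and 0.997 for Serpina1d. After quantile normalization the log2 difference of Serpina1d turned to 0.01, so that its direction depends on the scaling. As a share of all values, which was not tested, Serpina1d was lower in LNA29 livers, with a ratio of LNA29 to saline means of 0.816. Without both saline replicate 49 and LNA29 replicate 48, chosen after the data were seen, the log2 differences were -0.21 for Serpina1a (p = 0.0476 by exact permutation), -0.36 for Serpina1b (0.0159), -0.17 for Serpina1c (0.111) and -0.39 for Serpina1d (0.0159). In that setting they were 0.53 for Serpina3k (0.0794), 0.14 for Serpina3m (0.556), -0.39 for Serpina3n (0.0476), -0.58 for Serpina3g (0.0873) and -1.32 for Serpina6 (0.00794).

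**Figure D2:**
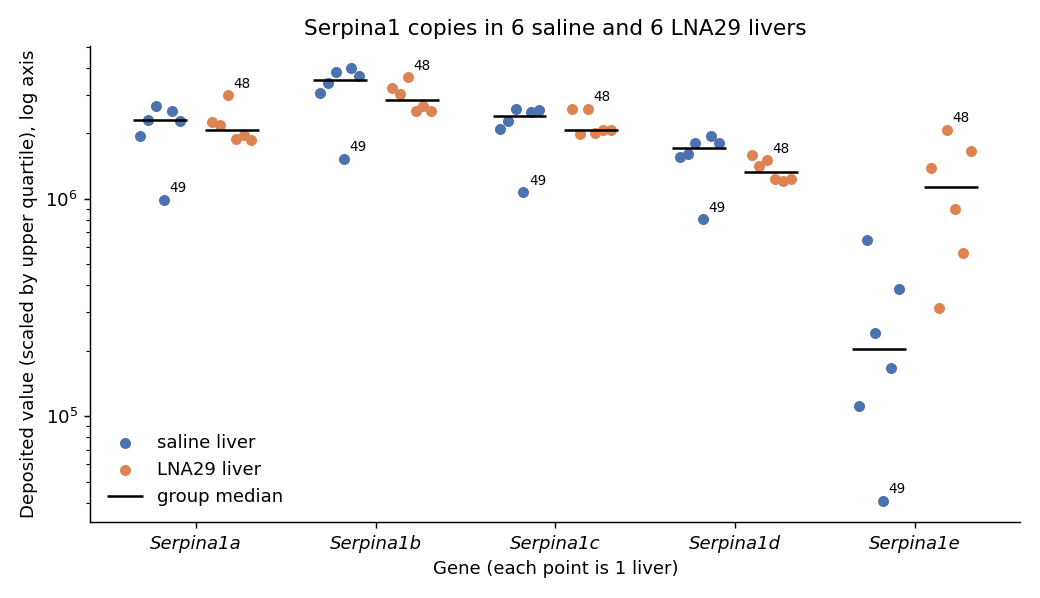
Deposited value of each Serpina1 copy (log axis, scaled by upper quartile) in 6 saline livers (blue) and 6 LNA29 livers (orange), 1 point per liver, with black bars at the group medians. Serpina1e has a median of 204062 in saline and 1137293 in LNA29 livers, and saline replicate 49 is the lowest point for every copy.

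Added together, the 5 copies were close between the groups. Their sum was lowest at 4433830 (replicate 49), had a median of 10470581 and was highest at 11152869 in saline livers, and it was 8464472, 9141493 and 12781717 in LNA29 livers. The ratio of LNA29 to saline means was 1.05, and 0.947 without saline replicate 49. As a share of all values, which no scaling factor touches, the copies took 5.61% ± 0.390 in saline and 5.64% ± 1.003 in LNA29 livers (SD, n = 6 each). On that scale saline replicate 49 was not low, at 5.40%.

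Within the sum, the division among the copies differed. Serpina1e made up between 0.922% and 6.33% of it in saline livers, with a median of 1.83%, and between 3.50% and 17.8% in LNA29 livers, with a median of 11.5%. The ratio of mean shares was 4.26, and between 3.76 and 5.92 with each liver left out in turn. The mean share of Serpina1b was 34.5% in saline and 30.0% in LNA29 livers, that of Serpina1d 17.0% and 13.99%, that of Serpina1c 23.3% and 22.6%, and that of Serpina1a 22.5% and 22.2%. Shares of a sum are tied to each other, so a larger share of Serpina1e lowers the rest, and they were not tested.

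The other 4 copies were also set against each other without Serpina1e, and these shares were not planned and not tested either. Serpina1d was 17.5% ± 0.680 of Serpina1a to Serpina1d in saline and 15.7% ± 0.947 in LNA29 livers (SD, n = 6 each). Every LNA29 liver was at or below 16.49% (replicate 44) and every saline liver at or above 16.58% (replicate 47), a narrow gap. For the values of single genes, 0.985% of those tested had groups that did not overlap, and no such rate was computed for shares. Serpina1b was 35.5% ± 0.578 and 33.7% ± 0.867, Serpina1a was 23.1% ± 0.997 and 25.0% ± 1.59, and Serpina1c was 23.9% ± 0.664 and 25.5% ± 1.58, and in these 3 copies the groups overlapped. Reads that RSEM divides among the copies enter these shares, and their part in the result was not tested.

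**Figure D3:**
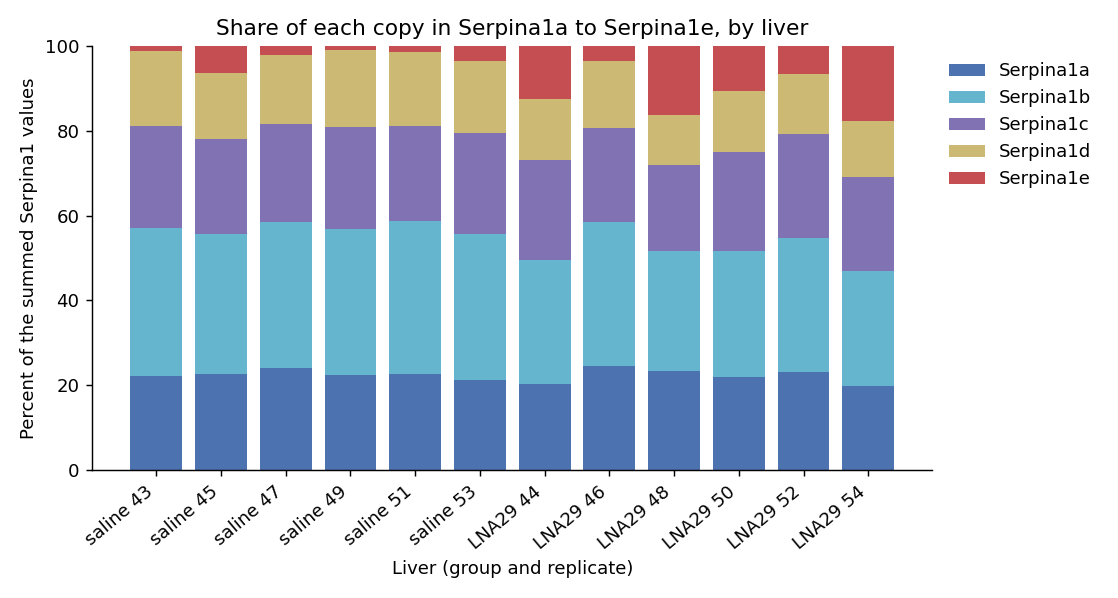
Share of each copy in the summed Serpina1a to Serpina1e values (percent, vertical axis) in each of the 12 livers, named by group and replicate, with bars that add up to 100. The red part, Serpina1e, is at most 6.33% in saline livers and reaches 17.8% in LNA29 livers.

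Per kb of transcript, the order of the members in saline livers was Serpina1b (1843034 ± 513803), Serpina1c (1600574 ± 422908), Serpina1a (1342882 ± 385407) and Serpina1d (1139183 ± 294076; SD, n = 6). Serpina3k followed at 285957 ± 118710 and Serpina1e at 168739 ± 140753 per kb, and the order of these 6 genes was the same in each of the 6 saline livers. Serpina3m (31212 ± 9727) and Serpina3n (30456 ± 8085) were next, with Serpina3m the higher in 4 of 6 saline livers. Serpina6 was at 2765 ± 1014 and Serpina3g last at 184 ± 33.0 per kb. In LNA29 livers Serpina1e, at 729435 ± 430098 per kb, had a higher mean than Serpina3k, at 377822 ± 174530, and was above it in 5 of 6 livers. That count depends on the transcript lengths taken from GENCODE M21, 1575 bases for Serpina1e and 2057 for Serpina3k. By values not divided by length, Serpina1e was above Serpina3k in LNA29 replicates 44, 48 and 54 and below it in 46, 50 and 52.

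Serpina6, the transcortin gene, had the second smallest limma p among the members and the opposite direction. In saline livers its lowest value was 2143 (replicate 45), its median 4072 and its highest 6641 (replicate 43). In LNA29 livers the lowest was 1500 (replicate 50), the median 1779 and the highest 7660 (replicate 48). Of the 6 LNA29 livers 5 were below every saline liver, and replicate 48 was above every saline liver.

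The mean of Serpina6 was 4438 ± 1627 in saline and 2699 ± 2437 in LNA29 livers (SD, n = 6 each), from between 70 and 426 estimated reads per liver. The log2 difference was -0.93 (SE 0.35, limma adjusted p = 0.455; p = 0.0584 by exact permutation). Over 20 alternatives the adjusted p was between 0.0164 and 0.729. Without LNA29 replicate 48 the log2 difference was -1.30 (SE 0.23, limma adjusted p = 0.0218; p = 0.00433 by exact permutation). Serpina6 was then the 1 member called, against 29 of 12466 genes (0.233%) in that fit. The groups then did not overlap, which was fixed in advance, because replicate 48 was the only LNA29 liver not below every saline liver. How many of all genes did not overlap in that setting was not counted. The exact permutation p was also under 0.05 without saline replicate 45 (0.0368).

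Serpina3k, the most abundant Serpina3 gene here, encodes an inhibitor of tissue kallikrein. Its lowest value was 378866 (replicate 49), its median 537493 and its highest 1059460 (replicate 45) in saline livers, and 204626 (replicate 48), 800693 and 1136080 in LNA29 livers. Of the 6 LNA29 livers 5 were above the saline median, and replicate 48 was below every saline liver. The log2 difference was 0.29 (SE 0.43; p = 0.517 by exact permutation). Without LNA29 replicate 48 it was 0.64 (limma adjusted p = 0.665, between 0.143 and 0.971 over 20 alternatives; p = 0.0498 by exact permutation). That is the highest value with 1 liver left out, and the lowest was 0.14, without LNA29 replicate 44 or 54 (p = 0.749 by exact permutation).

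Serpina3m had values from 33466 to 80349 in saline livers and from 20355 to 73686 in LNA29 livers, and a log2 difference of -0.00 (SE 0.28) that was 0.042 with a common median. Serpina3k and Serpina3m moved together over the livers: with group means removed, Pearson's r was 0.978 over 12 livers, and 8.20% of their coding windows are shared. Replicate 48 was the lowest LNA29 liver and replicate 45 the highest saline liver in both.

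Serpina3n, the member best known as an acute phase gene, had a lowest value of 34018 (replicate 49), a median of 67297 and a highest of 79500.0 in saline livers, and 35868, 50809 and 63802 in LNA29 livers. All 6 LNA29 livers were below the saline median, and the groups overlapped. The log2 difference was -0.31 (SE 0.22; p = 0.208 by exact permutation). Without saline replicate 49 it was -0.48 (limma adjusted p = 0.459, between 0.188 and 0.921 over 20 alternatives; p = 0.0325 by exact permutation). That is the largest decrease with 1 liver left out, and the smallest was -0.22, without LNA29 replicate 48 (p = 0.372 by exact permutation).

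Serpina3g, which is expressed mainly in immune cells and is induced by interferon-gamma, was scarce, with between 5 and 38 estimated reads per liver. Its lowest value was 228 (replicate 47), its median 339 and its highest 390.2 in saline livers, and 83.8 (replicate 50), 262 and 309 in LNA29 livers. All 6 LNA29 livers were below the saline median. The log2 difference was -0.55 (SE 0.30, limma adjusted p = 0.711, between 0.264 and 0.903 over 20 alternatives; p = 0.0476 by exact permutation). The exact permutation p was between 0.0173 and 0.128 with each liver left out and under 0.05 in 4 of the 12 cases: without saline replicate 47 or LNA29 replicate 46, 48 or 52. Without LNA29 replicate 50 the log2 difference was -0.27.

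Summed, Serpina3k, Serpina3m and Serpina3n had a ratio of LNA29 to saline means of 1.25, and between 1.14 and 1.47 with each liver left out. The sum was from 446350.0 to 1215238 in saline livers and from 260849 to 1272163 in LNA29 livers, so that the LNA29 range covered the saline range. Serpina3n made up 9.33% ± 2.31 of it in saline and 6.87% ± 3.65 in LNA29 livers (SD, n = 6 each).

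**Figure D4:**
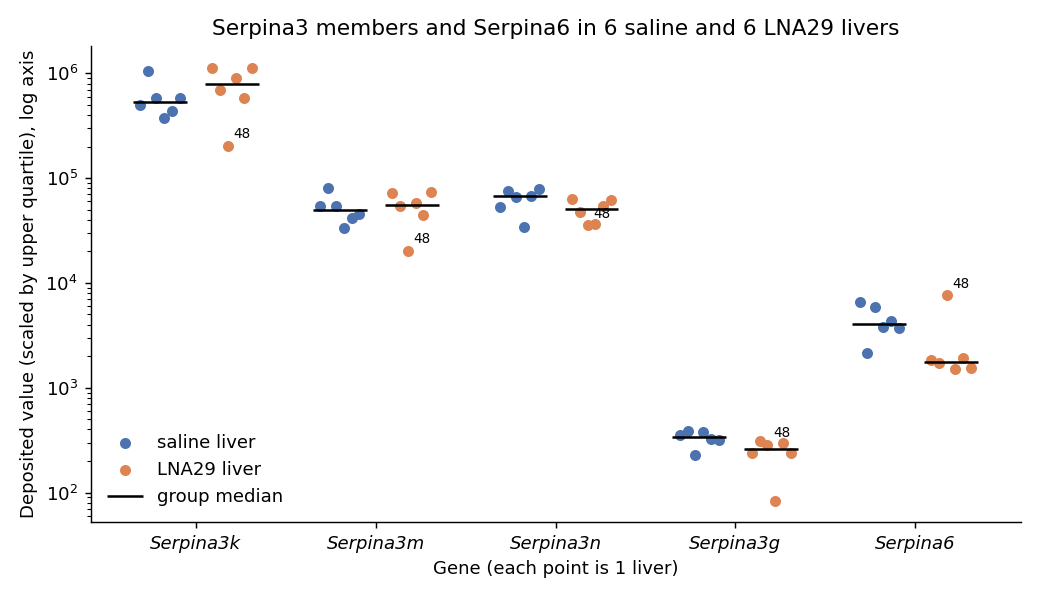
Deposited values of the Serpina3 members and Serpina6 (log axis) in 6 saline livers (blue) and 6 LNA29 livers (orange), 1 point per liver, with black bars at the group medians and LNA29 replicate 48 marked. In Serpina6 replicate 48 is at 7660, while the other LNA29 livers are at or below 1943.

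The members were compared with each other over the livers as a description, with group means removed and 12 livers in each case, which share their scaling and depth. Serpina1a to Serpina1d gave Pearson's r between 0.941 and 0.984 in 6 pairs, and Serpina1e gave between 0.609 and 0.740 with the other copies. Without the 2 livers farthest out in each pair, a step added after the data were seen, these were between 0.789 and 0.959 and between 0.281 and 0.622, and saline replicate 49 was one of the 2 in every pair. Serpina3n gave 0.608 with Serpina3k (0.331 without LNA29 replicate 48 and saline replicate 49). Serpina6 gave -0.849 with Serpina3k, with LNA29 replicate 48 and saline replicate 45 at opposite ends of the 2 genes, and -0.462 without these 2 livers. The copies also share reads, and the part of this in r was not tested.

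By the same measure over 8980 genes, the gene most like Serpina1e was Pla2g12a (r = 0.933), followed by Blvra, Slc35c2, Serpinb6a and Lmbr1l (0.893). For Serpina6 it was Inmt (0.952), followed by Pdlim7, Hyi, Gm15772 and Cyp2a5 (0.877). For Serpina3n it was Nlrp12 (0.899), followed by Amy1, Ssr4, Cstf1 and Lrrc41 (0.851). For Serpina3g it was Ifit3 (0.906), an interferon-induced gene, followed by Rmi1, Grpel2, Dtx4 and Adar (0.844). Livers that stood apart, such as LNA29 replicate 48 in Serpina6 and replicate 50 in Serpina3g, were not left out here. How far these r rest on single livers was not tested.

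On chromosome 12 the members are part of a run of 28 annotated Serpina genes and pseudogenes. Serpina6 is second in the run, after Serpina10, and Serpina1b, Serpina1d, Serpina1a, Serpina1c and Serpina1e follow in that order, with Serpina1e at the edge next to Serpina11. Serpina11, the neighbour of Serpina1e, had from 2625 to 4912 in saline and from 2732 to 5113 in LNA29 livers, a log2 difference of -0.06 that was 0.04 after quantile normalization. Serpina10, the neighbour of Serpina6, had a log2 difference of -0.05, which likewise was 0.04 after quantile normalization.

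Of the 16 other serpins of clade A that were listed for comparison, 9 had values high enough to test. None of the 9 passed the limma adjusted threshold, 0 were higher and 2 lower at an unadjusted p under 0.05, and their median log2 difference was -0.31, against -0.09 for all tested genes. The 2 lower genes were both scarce. Serpina7, the thyroxine-binding globulin gene, had at most 23 estimated reads and a log2 difference of -1.98 (p = 0.0325 by exact permutation), which was between -2.26 and -1.28 with each liver left out, the latter without LNA29 replicate 50, where it was listed at 1. Serpina3f had at most 17 and a log2 difference of -1.28 (p = 0.0216 by exact permutation). Serpina1f, Serpina3j and Serpina9 were listed at 1 in every liver.

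Among the other tested genes of this list, Agt, which encodes angiotensinogen, had values from 43940.0 to 102105 in saline livers and from 50107 to 77057 in LNA29 livers. Serpina12 had between 60 and 392 and between 37.7 and 315, and Serpina3c had between 15.6 and 111 and between 1 and 56.6. Serpina3h was between 1 and 41.8 in saline livers and Serpina4-ps1 between 1 and 47.6, and in LNA29 livers they reached 37.7 and 179. The highest values of the genes too scarce to test were 18.9 for Serpina3a, 48.8 for Serpina3b, 18.9 for Serpina3i and 17.9 for Serpina5.

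**Figure D5:**
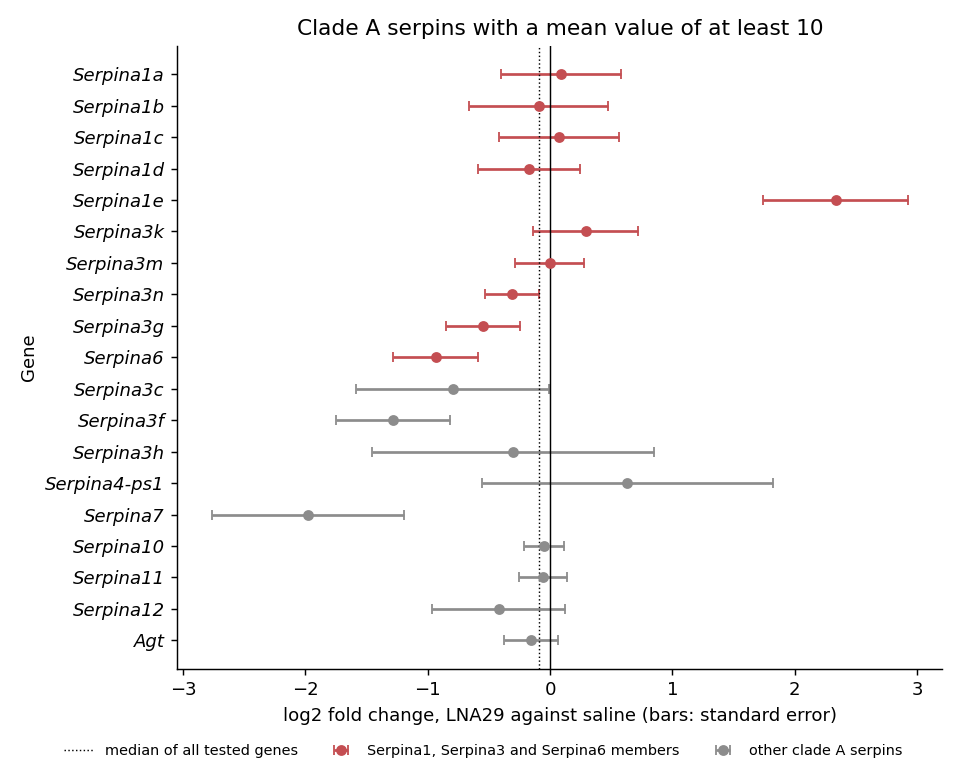
Log2 fold change of LNA29 against saline livers (horizontal axis) with its limma standard error (bars) for the 10 members (red) and the 9 other clade A serpins tested (grey), with a dotted line at the median of all tested genes, -0.09. Serpina1e, at 2.33, is the point farthest to the right.

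Of 14 serpins of other clades, 13 were tested, 0 passed the adjusted threshold in limma, and 1 was higher and 2 lower at an unadjusted p under 0.05 (median log2 difference -0.14). The higher gene was Serpinh1, the collagen chaperone, at 0.58 (p = 0.0130 by exact permutation). The lower genes were Serpind1, heparin cofactor, at -0.44 (p = 0.0130 by exact permutation), and Serpinb1a, an inhibitor of neutrophil proteases, at -0.71 (p = 0.0584 by exact permutation).

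Proteases that antitrypsin and the Serpina3 proteins inhibit were mostly near the floor: of 13 listed, 6 were tested, and Ctsg and Ctrb1 were listed at 1 in every liver. None passed the adjusted threshold in limma, and at an unadjusted p under 0.05 there was 1, Ctsl, a lysosomal cathepsin, with a log2 difference of 0.49 (p = 0.0519 by exact permutation). Of 20 genes for folding, export and disposal of antitrypsin in the endoplasmic reticulum, all 20 were tested, 0 had even an unadjusted limma p under 0.05, and their median log2 difference was -0.05.

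Regulators of the members were counted in the same way. Of 11 tested genes of IL-6 and STAT3 signalling, which induces acute phase serpins, 0 passed the adjusted threshold in limma and 1 was lower at an unadjusted p under 0.05, the kinase gene Tyk2 (-0.72; p = 0.0260 by exact permutation; median of the list -0.15). Il6 itself was listed at 1 in every liver. Of 12 hepatocyte transcription factors, 0 passed in limma and 1 was lower at an unadjusted p under 0.05, Cebpa (-0.40; p = 0.0476 by exact permutation; median -0.23).

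Of 11 glucocorticoid receptor and response genes, listed because transcortin carries corticosteroids, 0 passed in limma and 1 was higher at an unadjusted p under 0.05, Hsp90ab1 (0.32; p = 0.00866 by exact permutation; median 0.32). The 4 reported miR-29 targets had a median of 1.09, with 2 past the adjusted threshold in limma and 3 higher at an unadjusted p under 0.05. Besides Eln and Col3a1, the latter count holds Col4a1, at 0.60 (limma adjusted p = 0.413; p = 0.0195 by exact permutation).

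Markers of the cells that a liver piece can hold were summed in each liver, and the gene that adds most to each sum, by values not divided by length, is named as leading it. A lower value in whole tissue cannot tell fewer cells of a type from less RNA per cell. The 6 hepatocyte markers in the table (of 7 listed), led by Alb, had sums from 32620660.0 to 113883190.0 in saline and from 80426054 to 94844888 in LNA29 livers, the lowest being saline replicate 49. Neutrophil markers were nearly absent: Camp was listed at 1 in every liver, S100a9 had the highest mean value, 16.4, and the 8 genes summed to at most 63.5 in saline and 113 in LNA29 livers.

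The 8 Kupffer cell and macrophage markers, led by Clec4f, had sums from 9594 to 14719 in saline and from 8268 to 18425 in LNA29 livers, and 6 of the 8 had a log2 difference below 0 (median -0.23). Marco alone had an unadjusted limma p under 0.05, in the other direction (log2 difference 1.08). The 8 T and NK cell markers, led by Ccl5, had sums from 421 to 559 in saline and from 171 to 717 in LNA29 livers. The 5 B and plasma cell markers, led by Cd79a, summed to between 206 and 686 and between 125 and 604. None of these lists had a gene at 1 in every liver.

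The 6 stellate cell and fibroblast markers, led by Dcn, had sums from 3127 to 3970.0 in saline and from 2434 to 4329 in LNA29 livers. The 6 endothelial markers, led by Clec4g, summed to between 4492 and 5120.0 and between 3849 and 5109.6. The 6 bile duct markers, led by Spp1, summed to between 603 and 906 and between 439 and 1169.8. The 3 red blood cell markers in the table (of 5 listed), led by Hba-a2, summed to between 36507 and 154110.0 and between 37268 and 171275. In LNA29 replicate 48, the liver at the end of the range for Serpina1e, Serpina3k and Serpina6, the sums for B cell, T and NK cell, bile duct, neutrophil and red blood cell markers were the highest of the LNA29 group and the stellate sum was the lowest. The part of these cells in the members' values was not tested.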

How the data were processed

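Liver RNA of 6 saline and 6 LNA29 mice was analysed from the table the authors deposited. Per the authors, reads were mapped with MapSplice2 and quantified with RSEM (versions not stated) on mm9. The values are a signal that the authors made from RSEM reads, divided by the upper quartile of each liver and multiplied by 1000, with genes without reads listed at 1. The authors' group means, signed fold changes and one-tailed p-values, and 3 unnamed value columns, were not used. Genes with a mean of at least 10 (12486 of 21705) were fitted on log2(value + 1) with limma 3.58.1 and an intensity trend in R 4.3.3, with p adjusted after Benjamini and Hochberg and called under 0.05. Single genes also had a two-sided exact permutation test over 924 divisions, whose smallest p is 0.00216. Sums and shares had no test. Estimated reads are values divided by the worth of 1 read, found for each liver as the step of which between 92.2% and 93.9% of its values were whole multiples (within 0.02). Named are every member and clade A serpin, in other lists genes past the threshold, then at most 3 with an unadjusted p under 0.05 and a mean of at least 100, the gene of highest mean value in marker lists, Col1a1, Eln, and the 5 genes of highest Pearson's r with Serpina1e, Serpina3n, Serpina3g and Serpina6 (mean of at least 100). The members and lists were chosen with earlier results of these data known. Alternatives were pseudocounts of 0.1 and 10, no filter or a mean of at least 100, a common median, values beyond 1.5 SD discarded, ratios of geometric means and each liver left out. Quantile normalization, no intensity trend, shares of all values, and 2 livers left out together were chosen after seeing the data. Shares within Serpina1a to Serpina1d were not in the plan. Python 3.11.15, numpy 2.4.6, pandas 2.3.3, scipy 1.17.1 and mafft 7.526 did the rest.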

Additional observations from a re-analysis of the deposited data

Results flagged for a closer look

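In each group of 6 livers the lowest and the highest liver were compared with the rest, and a value is listed here when its gap to the nearest liver was large for the range of its group. Chance alone picks about 1 in 20 groups: 17 of 124 groups were picked, where chance gives 6.2. That expectation does not allow for groups that depend on each other. Serpina1a to Serpina1d, their sums and the albumin values repeat much the same reading of each liver. The 17 are therefore not 17 separate events, and no excess over chance can be read from these groups.

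Saline replicate 49 was the low liver in several of them. Its log2 values were 19.92 for Serpina1a, 20.54 for Serpina1b, 20.03 for Serpina1c and 19.62 for Serpina1d, where the other saline livers began at 20.89, 21.55, 20.99 and 20.56. The summed values of Serpina1a to Serpina1e came to 4433830 and those of Serpina1a to Serpina1d to 4392963. Its log2 value of Alb was 24.80 and its albumin share 35.7%. The same liver was the high one in the summed stellate cell and fibroblast markers, at 3970.0.

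LNA29 replicate 48 was high in Serpina6, with a log2 value of 12.90 against at most 10.93 in the other LNA29 livers, in the share of all values in Serpina1a to Serpina1d, at 6.29%, and in the summed B and plasma cell markers, at 604. It was low in Serpina3c, with a log2 value of 1. LNA29 replicate 50 was low in Serpina3g, with a log2 value of 6.41, and in Serpina7, with 1. Saline replicate 45 was low in Serpinb1a, with a log2 value of 7.70, and high in the sum of Serpina3k, Serpina3m and Serpina3n, at 1215238.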

How the results depend on the processing

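The number of genes past the threshold was 10 with a common median, 6 with no intensity trend, 217 with values beyond 1.5 SD of their group mean discarded, and between 1 and 29 with each liver left out. Serpina1e and Serpina6 passed it with values discarded, at log2 fold changes of 2.69 and -1.30. With each liver left out, Serpina1e was between 1.89 and 2.69 and never passed, and Serpina6 was between -1.30 and -0.80 and passed without LNA29 replicate 48 only. For these results the cause was not tested.

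Members near 0 changed sign without passing the threshold. With values discarded Serpina1a was at -0.21, Serpina1c at -0.12 and Serpina3m at 0.39. With a common median Serpina3m was at 0.042. With quantile normalization, chosen after seeing the data, Serpina3m was at 0.062 and Serpina1d at 0.013. With each liver left out Serpina1a was between -0.12 and 0.17, Serpina1c between -0.12 and 0.13, and Serpina3m between -0.12 and 0.25. The cause was not tested.

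Other genes that changed sign were also near 0 or scarce. With values discarded Serpina3h was at 0.14 and Alb at -0.016, and Serpina3f passed the threshold at -1.59. With quantile normalization Serpina10 was at 0.045, Serpina11 at 0.038 and Hba-a2 at 0.11, and with a common median Hba-a2 was at 0.030. With each liver left out the ranges were -0.78 to 0.14 for Serpina3h, -0.0077 to 1.39 for Serpina4-ps1, -0.13 to 0.033 for Serpina10, -0.16 to 0.025 for Serpina11, -0.049 to 0.30 for Alb, -0.016 to 0.92 for S100a9, -0.065 to 0.30 for Dcn and -0.27 to 0.20 for Hba-a2.

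Serpina1b, Serpina3k, Serpina3n, Serpina3g and both sums kept their direction and their side of the threshold, where one applied, in every alternative that was run for them, except that the Serpina1 sum ratio was between 0.947 and 1.09 with each liver left out. Count tests in edgeR and DESeq2 and TMM scaling were planned and not run. Serpina3g rests on at most 38 estimated reads per liver, which limits its precision. Division of reads among the Serpina1 copies limits single copies at any depth.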
